A study of Mus musculus with 42 samples.

Results

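Genes of B cells and plasma cells were followed in the lungs, livers and forestomachs of adult male Muta™Mouse exposed by gavage to BkF, which is benzo(k)fluoranthene, a hydrocarbon of fused aromatic rings. The members are 9 genes chosen by symbol among the 20018 genes with a named probe on the array: Cd79a, Cd79b, Ms4a1, Cd22, Blk, Cr2, Pou2af1, Mzb1 and Tnfrsf17. Muta™Mouse is a transgenic strain made for mutation assays, and the animals were about 11 weeks old. Vehicle controls (D0, dose 0) received olive oil alone on each of 28 days, and the exposed groups received BkF in the oil at daily doses of 25 (D1), 50 (D2) or 100 mg (D3) per kg body weight. The 15 mice were sampled 72 hours later and gave 15 lung arrays (4, 3, 4 and 4 for D0 to D3), 13 liver arrays (4, 2, 3 and 4) and 14 forestomach arrays (4, 3, 4 and 3). Each value below is a level, the log2 ratio of the tissue RNA to a reference RNA pooled from mouse cell lines, and a difference between 2 levels of a gene is a log2 change. A probe was called where limma's adjusted p was at most 0.05 and the change was at least 1.5-fold.

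B cells carry a receptor made of a membrane antibody and the signalling pair CD79A and CD79B. CD20 (Ms4a1) and CD22 lie in the same membrane, BLK is a kinase below the receptor, and complement receptor 2 (Cr2) lowers the threshold for activation by antigen coated with complement. A B cell that becomes a plasma cell gives up most of its receptor and builds up its secretory machinery. POU2AF1 is a coactivator of octamer-binding factors in B cells, MZB1 is a chaperone of the endoplasmic reticulum that helps to assemble antibodies, and TNFRSF17 is the survival receptor of plasma cells. In lung, such cells lie scattered in the walls of airways and vessels and in lymphoid clusters.

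The tissue labels were borne out by tissue markers. The mean log2 ratio over 6 lung markers was 5.07 to 6.11 in lung arrays, that over 6 liver markers 7.68 to 8.51 in liver arrays, and that over 6 markers of the forestomach's squamous lining 3.47 to 5.05 in forestomach arrays. Between 28.1% and 59.9% of probes per array were well above background. A lung array (D2, mouse 12) and a liver array (D3, mouse 17) stood apart by skeletal muscle markers, with mean log2 ratios over 6 genes of 5.00 and 4.06 where the other vehicle and BkF arrays of these tissues lay between -1.14 and -0.45. Others were the highest of their tissue for other markers. A D1 lung (mouse 7) reached 3.97 for glandular stomach markers and 3.91 for white fat markers. A D2 forestomach (mouse 15) reached 4.21 for liver markers, and a D3 forestomach (mouse 16) 4.67 for white fat markers. Some of these lay in a wide spread, as a D2 lung had 3.25 for white fat and a control forestomach 3.58 for liver markers. In forestomach, the mean over 7 glandular stomach markers ran from 0.58 to 6.38, with both low and high arrays among the vehicle controls. The column of a lung array on its slide followed the dose, so dose and place on the slide cannot be told apart in lung. Nearly the same held in liver, apart from the D3 array of mouse 20, and in forestomach, apart from the D0 array of mouse 2. In bulk tissue, fewer cells of a type and less RNA per cell cannot be told apart either.

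The vehicle arrays showed where these genes were measurable. Of the 9 members, 8 passed the filter on dim probes over the 42 arrays, Cd79a through lung arrays alone and Blk through 4 lung arrays and 1 liver array, so the counts below depend on the filter and support no comparison of tissues. Lung against liver gave 6 of 8 members called (Cd79a, Cd79b, Ms4a1, Cr2, Pou2af1 and Mzb1), against a background of 38.7% of all 39132 probes called in that comparison. Lung against forestomach gave 5 of 8 (background 28.8%), the same genes without Mzb1. Liver against forestomach gave 1 of 8 (background 31.7%), which was Mzb1. Without the lung of mouse 12 and the liver of mouse 17, which share this fit, liver against forestomach gave 3 of 8 by a smaller spread. Cr2 and Pou2af1 then joined Mzb1. Without the forestomach of mouse 3 this comparison gave 2. With the ratio given by the scanner software, the liver to forestomach difference changed sign for 5 of the 8 members, and Mzb1 kept a difference of -1.11. The liver arrays lay on slides of their own and were read with another version of the scanner software, so slide, software and tissue cannot be told apart in any comparison with liver.

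**Figure D1:**
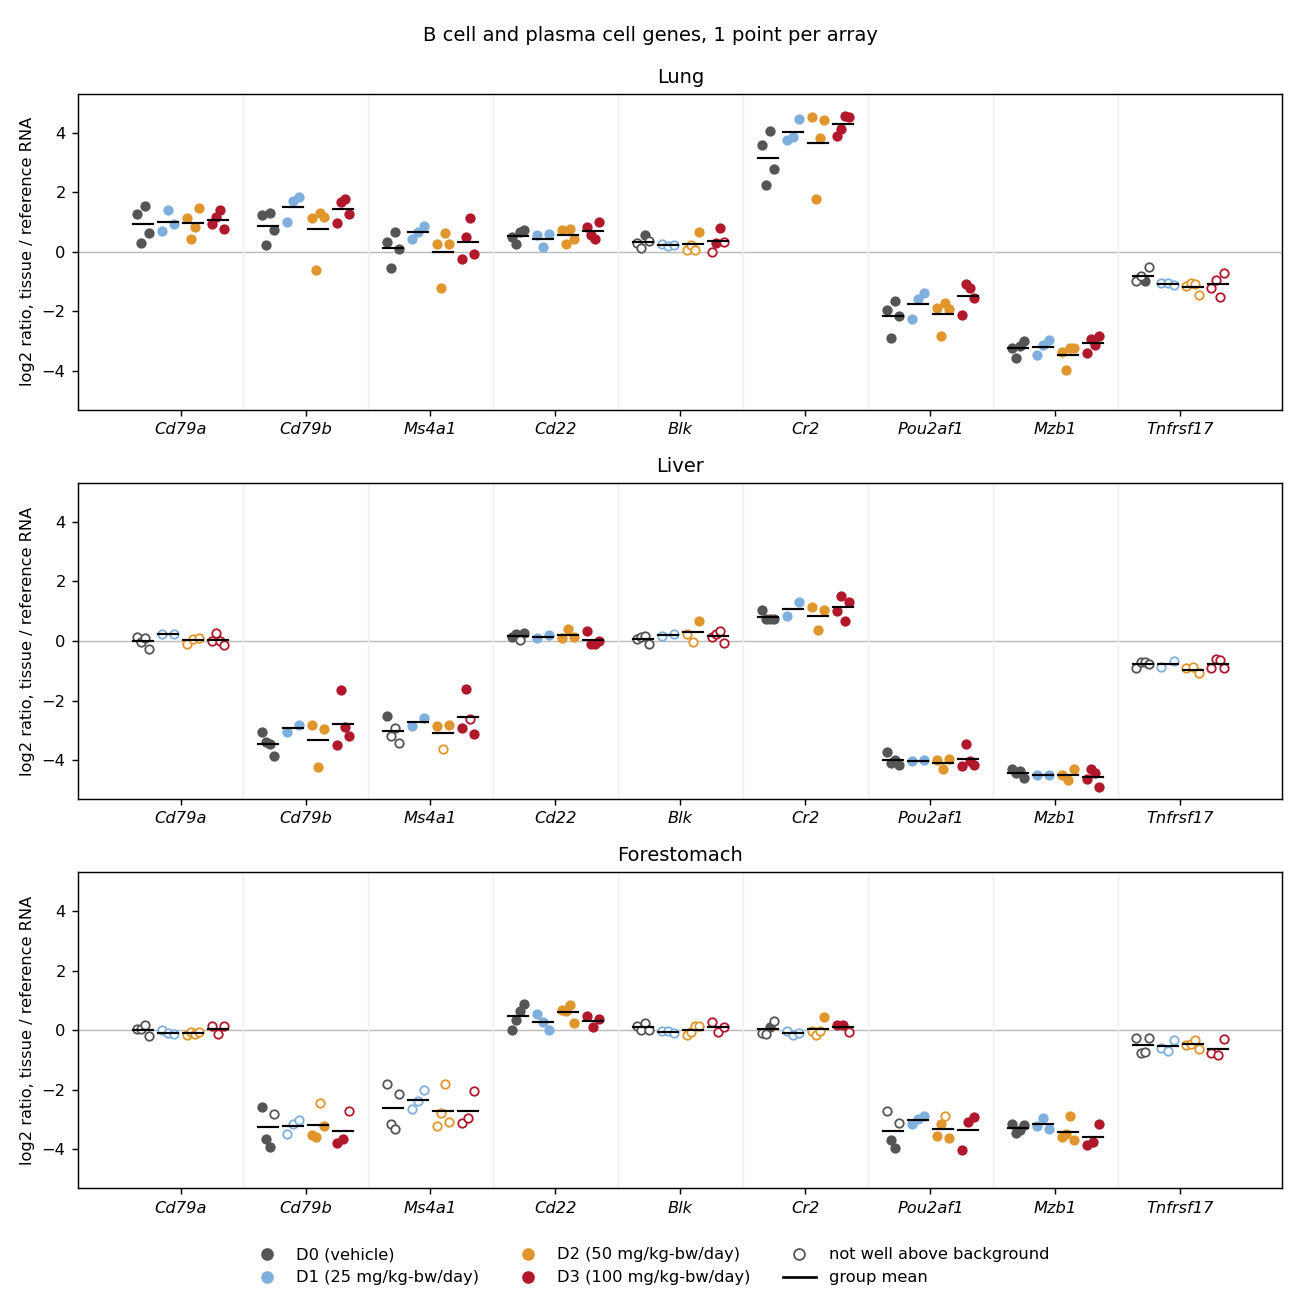
Log2 ratio of tissue to reference RNA (y axis) for each member (x axis) in lung, liver and forestomach, 1 point per array coloured by dose group, with the group mean as a line; open points were not well above background. Cd79b, Ms4a1, Cr2 and Pou2af1 sit higher in lung than in both other tissues, and the D2 lung array of mouse 12 is the low orange point of Cd79b, Ms4a1, Cr2 and Pou2af1.

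Among the receptor genes, Cd79b was measurable in all 3 tissues, though in forestomach it was well above background on 8 of 14 arrays. In vehicle lung its levels were 1.24, 0.22, 1.31 and 0.74 in mice 1 to 4, against -3.06, -3.39, -3.46 and -3.87 in the livers and -2.58, -3.66, -3.94 and -2.83 in the forestomachs of the same mice. Every lung level was above every liver and forestomach level. The change was 4.32 (SE 0.40, adjusted p = 1.8e-11, limma) for lung against liver and 4.13 (SE 0.40, adjusted p = 2e-10) for lung against forestomach, or 5.66 with the scanner's ratio, and liver and forestomach differed by -0.20 (SE 0.40, adjusted p = 0.75).

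Its partner Cd79a was well above background on all 15 lung arrays and on none of the 27 others. The vehicle lung levels were 1.27, 0.31, 1.54 and 0.64. Since the sample signal of the other tissues was at background, only bounds can be given for Cd79a. It was at least 1.65-fold higher in vehicle lung than in liver and at least 1.51-fold higher than in forestomach. As it passed the filter through lung arrays alone, its calls are given as no support for a difference between tissues.

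Ms4a1, which encodes the B cell surface protein CD20, had levels of 0.34, -0.53, 0.67 and 0.08 in vehicle lung and of -2.53, -3.18, -2.92 and -3.44 in vehicle liver, where 1 of 4 arrays was well above background. The groups did not overlap, with a change of 3.16 (SE 0.39, adjusted p = 1.4e-08, limma). With 3 of the 4 livers near background this is no exact size, and the scanner's ratio gave 5.25. No forestomach array had Ms4a1 well above background, so that it was at least 6.35-fold higher in vehicle lung (adjusted p = 5e-07).

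Cr2 had the highest log2 ratio of the members in lung, which says only that lung held much more of it than the reference did. Its levels were 3.6, 2.23, 4.05 and 2.77 in vehicle lung, 1.03, 0.75, 0.74 and 0.73 in vehicle liver, and -0.10, -0.12, 0.11 and 0.31 in vehicle forestomach, where 1 of 4 arrays was well above background. Lung lay 2.35 above liver (SE 0.36, adjusted p = 1.1e-06, limma) and 3.11 above forestomach (SE 0.36, adjusted p = 1.3e-08), where it was near background and the scanner's ratio gave 4.49. Liver lay 0.76 above forestomach with all 4 livers above all 4 forestomachs, but this was not called (SE 0.36, adjusted p = 0.092), while the scanner's ratio gave 2.18, which was called. A second Cr2 probe was well above background on all 15 lung arrays and on no liver or forestomach array.

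The inhibitory receptor gene Cd22 was well above background on 41 of 42 arrays and was called in no comparison of vehicle tissues. Its levels were 0.51, 0.26, 0.66 and 0.73 in vehicle lung, 0.13, 0.22, 0.04 and 0.26 in vehicle liver and 0.02, 0.35, 0.64 and 0.89 in vehicle forestomach. Lung against liver gave 0.38 (95% interval 0.04 to 0.71, adjusted p = 0.052, limma) and lung against forestomach 0.07 (-0.27 to 0.40, adjusted p = 0.78), so that neither was called. With the ratio given by the scanner software, lung against liver was 0.64 (adjusted p = 0.02, limma) and liver against forestomach -0.60 (adjusted p = 0.033), both called. The kinase gene Blk was at or near background throughout, with 1 of 4 vehicle lung arrays and no vehicle liver or forestomach array well above it, and no difference was called.

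The genes of antibody-secreting cells split. Pou2af1, the octamer coactivator, had levels of -1.97, -2.89, -1.65 and -2.16 in vehicle lung, -3.72, -4.11, -3.99 and -4.17 in vehicle liver, and -2.73, -3.70, -3.96 and -3.13 in vehicle forestomach. The lungs lay above all livers, by 1.83 (SE 0.28, adjusted p = 9.4e-07, limma), while 3 of 4 lungs lay above all forestomachs, a change of 1.21 (SE 0.28, adjusted p = 6.2e-04), or 2.3 with the scanner's ratio. In forestomach, 2 of 4 vehicle arrays had Pou2af1 well above background. A level below 0 means that the reference gave the stronger signal.

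Mzb1, the antibody chaperone, was the member that set liver apart. Its levels were -3.23, -3.57, -3.15 and -3.01 in vehicle lung and -3.15, -3.44, -3.37 and -3.19 in vehicle forestomach, which overlap, and -4.29, -4.42, -4.38 and -4.59 in vehicle liver, all below both. Liver was 1.18 below lung (SE 0.18, adjusted p = 8.5e-07, limma), and the liver to forestomach change was -1.13 (SE 0.18, adjusted p = 2.3e-06). Lung and forestomach differed by 0.05 (95% interval -0.32 to 0.41, adjusted p = 0.85). Tnfrsf17 was well above background on 1 of the 42 arrays, a vehicle lung, and was not tested.

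**Figure D2:**
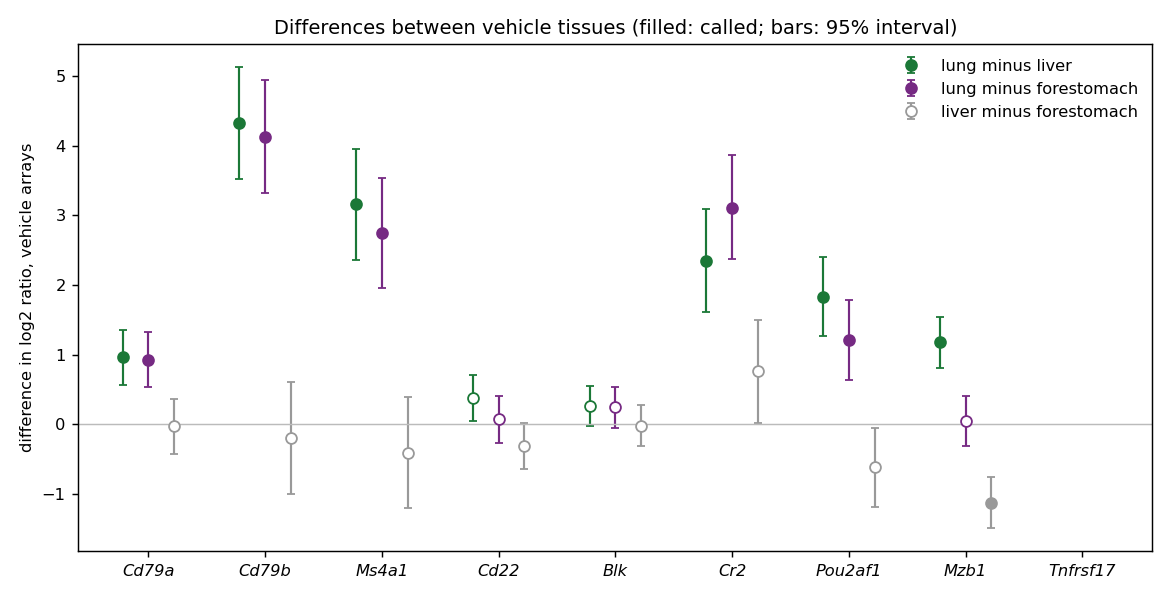
Difference in log2 ratio between vehicle tissues (y axis) for each member (x axis), with 95% intervals; filled points were called. Cd79a, Cd79b, Ms4a1, Cr2 and Pou2af1 are called higher in lung than in both other tissues (Cd79a passed the filter through lung arrays alone), Mzb1 is called lower in liver than in both others, and Tnfrsf17 was not tested.

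No member was called at any dose of BkF in any tissue, nor as a trend with dose. In lung, 8 members were tested and 0 called at D1, D2, D3 and over the trend, with backgrounds of 0%, 0.0153%, 0.0336% and 0.0336% of 32695 probes. In liver, 6 were tested and 0 called, with backgrounds of 0%, 0.0427%, 0.0525% and 0% of 30449 probes. In forestomach, 5 were tested and 0 called, with a background of 0% of 25305 probes in each of the 4 comparisons. At unadjusted p under 0.05, limma gave 2 of 8 members in lung at D3, beside 2622 of all 32695 probes, and 0 members in each of the other 11 comparisons. With shares of called probes this low, 0 of 8 says little about the members beyond what holds for most genes on the array. The 3 dose comparisons of a tissue share their vehicle arrays.

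In lung at D3, all 8 tested members had a change above 0, with a median of 0.18 beside 0.00 over all probes, of which 50.9% were above 0. The control lung of mouse 2 was the lowest of the 4 controls for all 8 members. Without it, 5 of 8 changes were above 0 (median 0.07), 0 were below an unadjusted p of 0.05 by limma, and Cd79a, Ms4a1 and Blk stood at -0.08, -0.03 and -0.05. At D1, 6 of 8 changes were above 0 (median 0.26), and at D2 4 of 8 (median -0.03), or 4 of 8 (median 0.07) and 1 of 8 (median -0.18) without control mouse 2. Without the D1 array of mouse 7, the D1 count was again 6 of 8 (median 0.43). Without the D2 array of mouse 12, 6 of 8 changes at D2 were above 0 (median 0.22).

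Cr2 had the largest change at D3 in lung. Against control levels of 3.6, 2.23, 4.05 and 2.77, the D3 levels were 3.90, 4.14, 4.56 and 4.54. Of the 4 D3 lungs, 3 lay above all controls. The change was 1.12 (2.18-fold, 95% interval 0.03 to 2.22, adjusted p = 0.61, limma). The D1 levels of Cr2 were 3.75, 3.85 and 4.46 (change 0.86, adjusted p = 1), and the D2 levels 4.54, 1.78, 3.84 and 4.42 (change 0.48, adjusted p = 1). The low D2 level was that of mouse 12, and without this array the D2 change was 1.1 (adjusted p = 0.81). In the same fit the D3 change of 1.12 had a smaller SE, 0.33, and an adjusted p of 0.25. The second Cr2 probe had a change of 0.42 at D3 (adjusted p = 0.85), with 1 of 4 D3 lungs above all controls.

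Pou2af1 showed the second largest change. Its D3 lung levels were -2.11, -1.09, -1.22 and -1.55, of which 3 lay above all 4 controls. The change was 0.67 (1.6-fold, 95% interval 0.02 to 1.33, adjusted p = 0.61, limma). Cd79b stood at 0.96, 1.69, 1.79 and 1.28 at D3, and 2 of 4 lungs lay above the controls. Its change was 0.55 (-0.27 to 1.37, adjusted p = 0.78). Without control mouse 2, the changes were 0.43 for Pou2af1, 0.33 for Cd79b and 0.81 for Cr2 (adjusted p of 1 for each, limma).

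The other lung members had smaller changes, all with intervals that include 0. They were 0.14 for Cd79a (95% interval -0.45 to 0.72), 0.19 for Ms4a1 (-0.62 to 1.00), 0.17 for Cd22 (-0.18 to 0.52), 0.02 for Blk (-0.33 to 0.38) and 0.17 for Mzb1 (-0.23 to 0.57). The intervals of Cd22 and Mzb1 lay within a 1.5-fold change in either direction. Blk was well above background on 1 of 4 control lungs and 2 of 4 at D3, so its interval sets no limit.

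**Figure D3:**
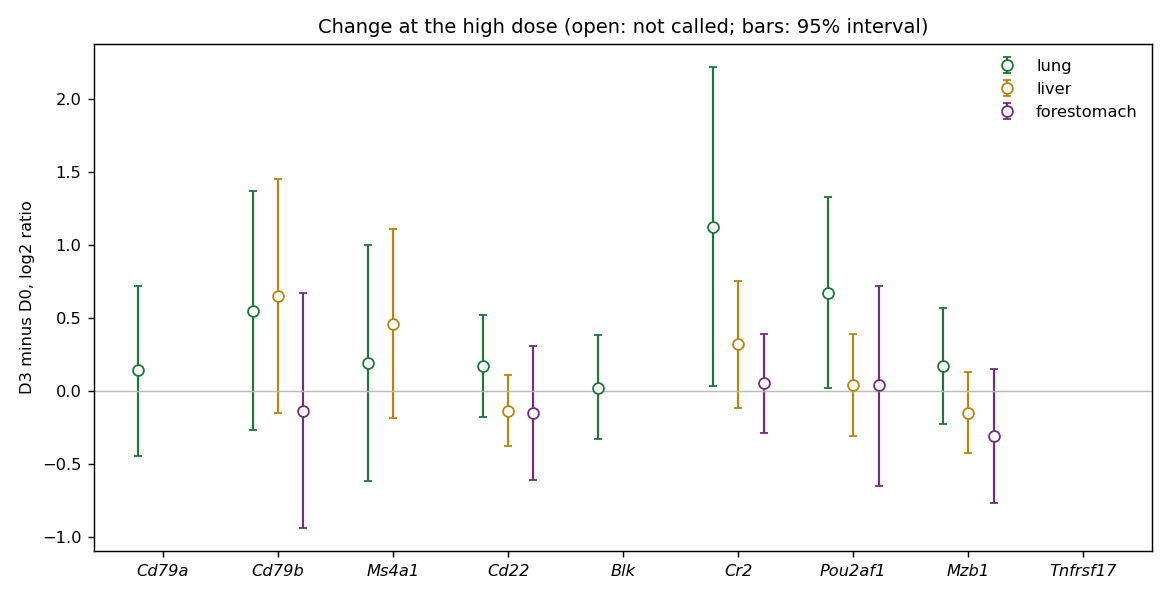
Change in log2 ratio from D0 to D3 (y axis) for each member (x axis) in lung, liver and forestomach, with 95% intervals; all points are open because none was called. The interval lies just above 0 for Cr2 and Pou2af1 in lung and spans 0 for all other points.

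In liver, the largest changes at D3 were those of Cd79b and Ms4a1. Cd79b had control levels of -3.06, -3.39, -3.46 and -3.87 and D3 levels of -3.48, -1.65, -2.88 and -3.18. The high value was that of mouse 17. The change was 0.65 (SE 0.37, adjusted p = 0.71, limma), and 0.27 (SE 0.30, adjusted p = 0.88) without that array. It was -0.13 in the authors' own normalised table and 1.12 with the scanner's ratio. Ms4a1 levels at D3 were -2.91, -1.6, -2.61 and -3.11, a change of 0.46 (adjusted p = 0.74), 0.14 without mouse 17 and 1.61 with the scanner's ratio. Only 1 of the 4 control livers had Ms4a1 well above background, so its size is uncertain. That array was the highest of the 4 D3 livers for 5 of the 6 tested members, and its leukocyte markers were also higher, by 0.81 over the median of the other livers for 6 genes. Their part in the result was not tested.

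The other liver members were not called either. Cr2 was 1.00, 1.52, 0.67 and 1.31 at D3 (change 0.32, 95% interval -0.12 to 0.75), and the changes of Cd22, Mzb1 and Pou2af1 were -0.14 (-0.38 to 0.11), -0.15 (-0.43 to 0.13) and 0.04 (-0.31 to 0.39). In the authors' table the liver change of Mzb1 was -0.57 (adjusted p = 0.30, limma). In forestomach the 5 tested members had changes of -0.31 (Mzb1) to 0.05 (Cr2) at D3, with a median of -0.14, or 0.02 without mouse 16. The widest intervals were those of Cd79b (-0.94 to 0.67) and Pou2af1 (-0.65 to 0.72), both with arrays not well above background in several groups.

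The D3 change was also compared between tissues. Of 8 members, 0 differed for lung against liver (background 0.0256% of 39132 probes), 0 for lung against forestomach (0.0102%) and 0 for liver against forestomach (0.00511%), and at unadjusted p under 0.05 limma gave 0 in all 3. The largest of these differences was 1.07 for Cr2, lung against forestomach (SE 0.54, adjusted p = 1).

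Within lung, several members went up and down together from mouse to mouse. After each dose group's mean had been subtracted, Pearson's r over the 15 arrays was 0.94 for Cd79b with Ms4a1, 0.92 for Cd79b with Pou2af1, 0.90 for Cd79b with Cr2, 0.82 for Cd79b with Mzb1 and 0.78 for Cd79b with Cd79a. Without the array of mouse 12, r over 14 arrays was 0.88, 0.97, 0.74, 0.66 and 0.78 in the same order. Lower r to Cd79b were those of Blk (0.33 over 15 arrays and 0.49 over 14) and Cd22 (0.28 and -0.10). Cd22 had r of 0.47 to Mzb1 and 0.46 to Cr2 over 15 arrays, and of 0.28 and 0.23 over 14. These arrays share slides and the same reference RNA, and the values are descriptions.

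The order of the mice was similar for most members. In controls, mouse 2 was lowest for 8 of 8 members and mouse 3 highest for 6 of 8. In D3, mouse 16 was lowest for 6 of 8 and mouse 19 highest for 5 of 8, and in D2, mouse 12 was lowest for 7 of 8. Markers of other cells were compared on the low arrays. On the array of mouse 12, the mean over 7 macrophage markers was 2.34 above the median of the other lungs and that over 6 forestomach lining markers 4.09 above it, while T cell markers (12 genes) were 0.55 below it and NK cell markers (5 genes) 0.75 below it. On that of control mouse 2, T cell markers were 0.19 below and NK cell markers 0.46 above the median of the others. The part of these cells in the members' levels was not tested.

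**Figure D4:**
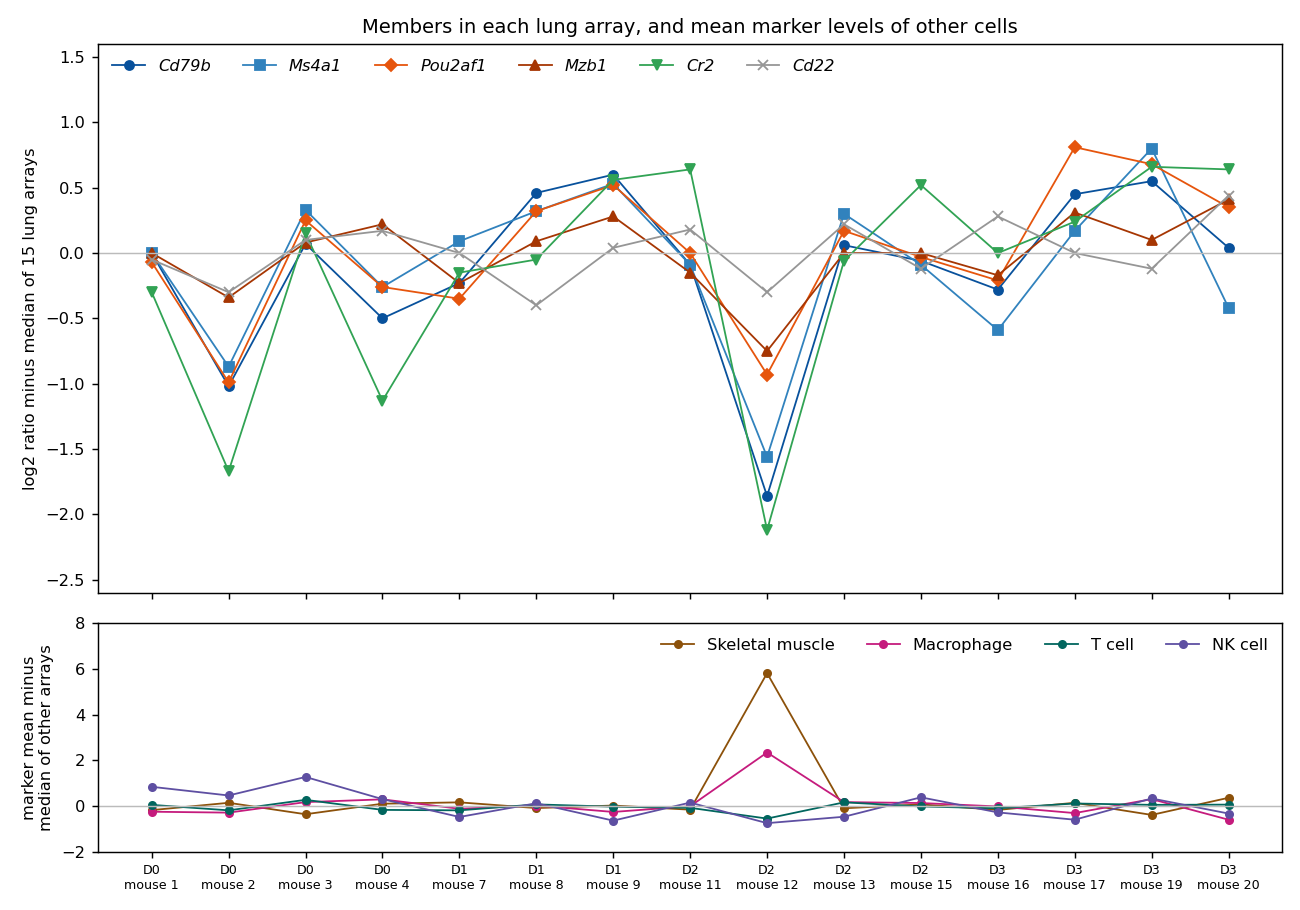
Upper panel: log2 ratio of 6 members minus each one's median over 15 lung arrays (y axis) for every mouse (x axis). Lower panel: mean log2 ratio of marker lists for skeletal muscle, macrophages, T cells and NK cells minus the median of the other lung arrays. Cd79b, Ms4a1, Pou2af1 and Cr2 dip together in control mouse 2 and in D2 mouse 12, Cd22 less so, and skeletal muscle markers peak in mouse 12.

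By the same measure, the non-member genes most like Cd79a in lung were Cyb561a3 (r = 0.93), H2-Eb2 (0.93), Rnase6 (0.92), Hnrnpa0 (0.92) and Ctsw (0.92), among 14900 genes ranked over 15 arrays. Ctsw encodes a protease of NK and cytotoxic T cells. The members themselves ranked lower, from Cd79b at place 205 (r = 0.78), Cr2 at 279, Pou2af1 at 282 and Ms4a1 at 365 to Blk at 1828, Mzb1 at 2771 and Cd22 at 9772 (r = -0.08). Liver and forestomach gave no such ranking, as Cd79a was not above background there.

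The regions before the transcription start are shown for members with a high r to Cd79b in lung (Cd79a, Cr2, Pou2af1) and for one with a low r (Cd22). They are the 250 bases upstream of the start in the RefSeq promoter table of build GRCm38.p6, which holds 5 of the 9 members, written 5′ to 3′ on the gene's strand. Both strands were searched for the octamer ATGCAAAT and the E box CAGGTG, and capitals mark a match on either strand. The motifs were chosen after the members' levels were known.
Cd79a, chr7:24897247-24897496, plus strand: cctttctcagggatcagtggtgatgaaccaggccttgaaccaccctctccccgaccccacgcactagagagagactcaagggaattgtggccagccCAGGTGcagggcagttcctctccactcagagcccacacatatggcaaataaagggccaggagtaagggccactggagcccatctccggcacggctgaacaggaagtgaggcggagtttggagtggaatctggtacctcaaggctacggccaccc
Cr2, chr1:195176720-195176969, minus strand: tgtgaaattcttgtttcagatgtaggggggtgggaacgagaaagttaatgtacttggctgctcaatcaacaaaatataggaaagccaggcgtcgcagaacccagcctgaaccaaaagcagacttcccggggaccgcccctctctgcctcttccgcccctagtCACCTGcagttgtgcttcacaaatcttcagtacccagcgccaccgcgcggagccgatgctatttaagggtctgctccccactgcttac
Pou2af1, chr9:51213440-51213689, plus strand: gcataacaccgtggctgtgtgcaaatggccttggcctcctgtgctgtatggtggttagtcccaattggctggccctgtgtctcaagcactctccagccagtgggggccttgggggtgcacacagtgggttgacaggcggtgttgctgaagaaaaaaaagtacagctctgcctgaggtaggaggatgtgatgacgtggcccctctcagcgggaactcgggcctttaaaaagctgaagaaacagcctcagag
Cd22, chr7:30879029-30879278, minus strand: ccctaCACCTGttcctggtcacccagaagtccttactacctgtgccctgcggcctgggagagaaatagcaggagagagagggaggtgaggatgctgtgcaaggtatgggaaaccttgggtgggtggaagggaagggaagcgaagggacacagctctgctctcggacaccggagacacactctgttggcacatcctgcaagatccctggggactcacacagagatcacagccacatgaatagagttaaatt

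The E box was in the windows of Cd79a, Cr2 and Cd22, beside 17.2% of all 32851 windows of this length in the table. The octamer was in none of the 5 windows held (1.6% of all). A match is a stretch of letters and not a bound site. The window of Pou2af1, with the higher r to Cd79b, held neither motif, and that of Cd22, with the lower, held the E box.

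Other genes of the B cell were looked at through a list of 26 identity and receptor signalling genes. In lung 24 were tested, and 0 were called at D3. The number above 0 was 21 of 24, with a median change of 0.27 beside 0.00 over all probes. It was 19 of 24 at D1 (median 0.21) and 17 of 24 at D2 (median 0.09). The 3 counts share the control arrays. Without that of mouse 2, 15 of 24 were above 0 at D1 (median 0.08), 10 of 24 at D2 (median -0.03) and 20 of 24 at D3 (median 0.17). At unadjusted p under 0.05, limma gave 1 of 24 at D3, beside 2622 of all 32695 probes, and 0 of 24 without mouse 2.

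The highest changes of that list in lung at D3 were those of Bank1, a scaffold protein of the B cell receptor pathway, at 0.71 (SE 0.37, adjusted p = 0.66, limma), and Blnk, the adaptor that links the kinase SYK to its targets, at 0.67 (SE 0.26, adjusted p = 0.51). Blnk levels were -2.16, -3.30, -2.08 and -2.50 in controls and -2.45, -1.76, -1.83 and -1.33 at D3, so 3 of 4 D3 lungs lay above all controls. Without control mouse 2, the changes were 0.45 for Bank1 and 0.40 for Blnk (adjusted p of 1 for each, limma). The lowest were Cd38 (-0.16, or -0.27 without mouse 2) and the inhibitory Fc receptor gene Fcgr2b (-0.12).

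In liver 20 genes of this list were tested, 0 were called (5 at unadjusted p under 0.05 by limma, beside 2376 of all 30449 probes), and 15 were above 0 at D3 (median 0.11). Without the array of mouse 17, 3 had an unadjusted p under 0.05 and 11 were above 0 (median 0.09). The highest of the list were Fcmr, the Fc receptor for IgM, at 0.95 (SE 0.32, adjusted p = 0.49, limma) and Cxcr5, the chemokine receptor that guides B cells into follicles. Fcmr levels were 0.81, 0.44, 0.61 and 0.52 in control livers and 1.18, 2.18, 0.88 and 1.93 at D3, all above the controls, of which 2 of 4 were well above background. Cxcr5 was well above background on 0 of 4 control livers and 1 of 4 at D3, that of mouse 17, so no size is given for its change. Blnk (-0.21) and Cd38 (-0.18, or -0.32 without mouse 17) were lowest. In forestomach 15 were tested and 0 were called (1 at unadjusted p under 0.05 by limma, beside 557 of all 25305 probes). Of the 15, 6 were above 0 (median -0.08), from Fcer2a at -0.34 and Cd37 at -0.22 to Syk at 0.47 and Bcl11a at 0.51. Without the forestomach of mouse 16, 8 of 15 were above 0 (median 0.14).

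**Figure D5:**
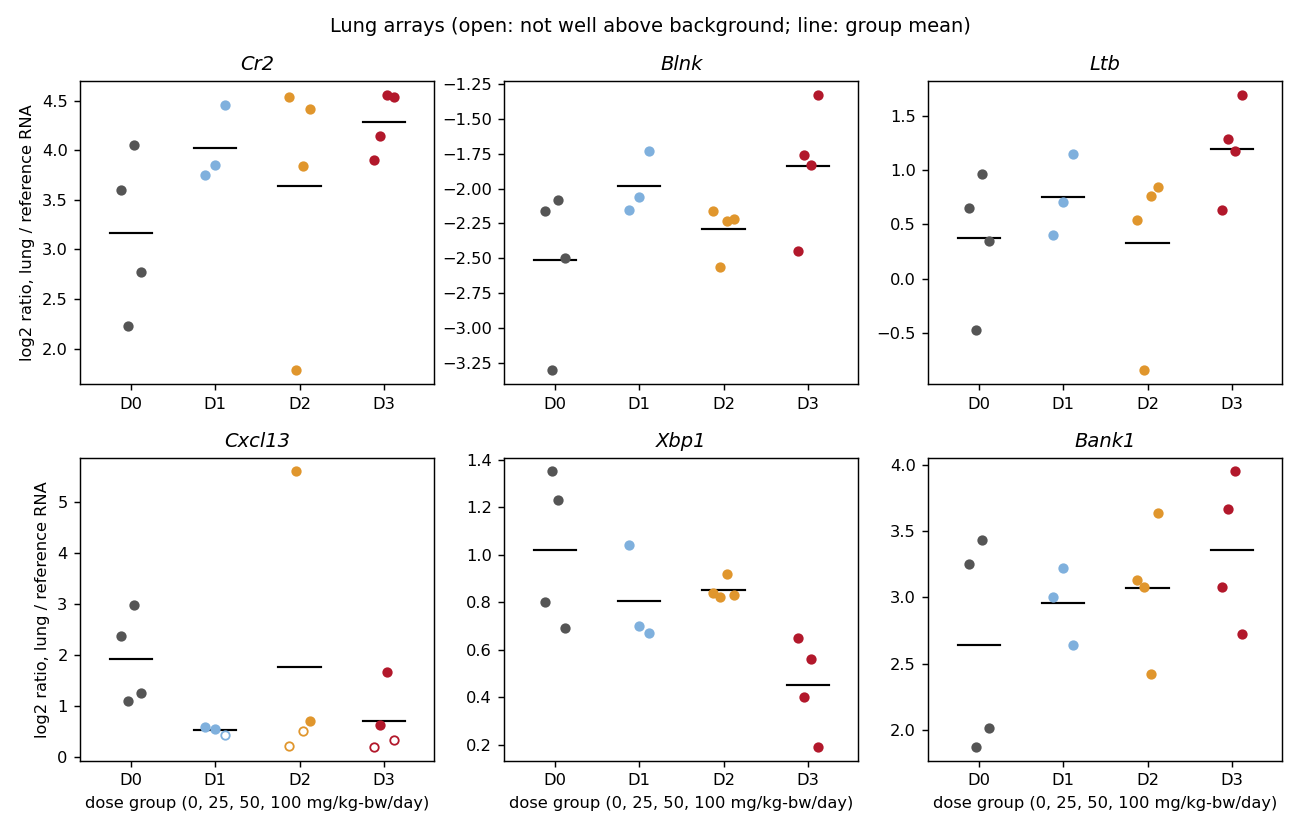
Log2 ratio of lung to reference RNA (y axis, scaled per gene) by dose group (x axis) for Cr2 and for Blnk, Ltb, Cxcl13, Xbp1 and Bank1 of the context lists; points are arrays, lines are group means and open points were not well above background. All 4 D3 values of Xbp1 lie below the controls, and Cxcl13 is at or near background on several BkF arrays, apart from 5.59 in mouse 12.

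Genes of antibody secretion were looked at next. Of a list of 19 genes, 15 were tested in lung and 0 were called at D3. At unadjusted p under 0.05 limma gave 3, beside 2622 of all 32695 probes. Of the 15, 9 were below 0 (median -0.07). Xbp1, the transcription factor that drives the secretory programme and that other secretory cells of the lung also use, was lowest. Its levels were 0.80, 1.35, 1.23 and 0.69 in controls and 0.65, 0.40, 0.56 and 0.19 at D3, all below the controls. The change was -0.57 (SE 0.15, adjusted p = 0.34, limma). Control mouse 2 had the highest level, 1.35, and the nearest control and D3 levels were 0.69 and 0.65. Edem1, which marks misfolded glycoproteins for degradation, had a change of -0.51 (SE 0.19, adjusted p = 0.51). The highest were Eaf2 at 0.21 and Irf4 at 0.20.

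In liver 14 genes of the secretion list were tested, 0 were called (0 at unadjusted p under 0.05 by limma, or 2 without mouse 17), and 9 were above 0 at D3 (median 0.10), from Sdc1 at -0.30 and Jchain at -0.25 to Creld2 at 0.77 and Derl3 at 0.83. Without mouse 17, Jchain stood at -0.43, Creld2 at 0.41 and Derl3 at 0.47. Jchain encodes the chain that joins antibody units, and Derl3 and Creld2 are proteins of the endoplasmic reticulum. In forestomach 13 were tested, 0 were called (again 0 unadjusted), and 9 were below 0 (median -0.16), from Derl3 at -0.80 and Sec11c at -0.37 to Jchain at 0.21 and Hsp90b1 at 0.27. Without mouse 16, 5 of 13 were below 0 (median 0.01), with Derl3 at -0.48, Sec11c at 0.01 and Jchain at 0.35. At D1 the forestomach list lay the other way, with 11 of 13 above 0 (median 0.42) and 4 at unadjusted p under 0.05 by limma, beside 3070 of all 25305 probes. The mean over glandular stomach markers was 5.82 to 6.36 in the D1 forestomachs, 1.24 to 5.76 in those at D3 and 0.58 to 6.13 in controls. Its part in the forestomach results at D1 and D3 was not tested. The antibody genes Ighm, Igkc and Igha had no named probe here.

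Signals that attract or sustain B cells were taken from a list of 12 genes. In lung at D3, 11 were tested and 0 were called (1 at unadjusted p under 0.05 by limma, beside 2622 of all 32695 probes). Of the 11, 6 were above 0 (median 0.10). Ltb, a lymphotoxin gene that lymphocytes themselves express, stood at 0.65, -0.48, 0.97 and 0.35 in controls and at 0.63, 1.29, 1.18 and 1.70 at D3, a change of 0.83 (SE 0.37, adjusted p = 0.60, limma), or 0.54 without control mouse 2. Cxcl13, the chemokine that draws B cells through CXCR5, had the lowest change at D3, and since 2 of 4 D3 lungs were not well above background, no size is given for it. Pigr had a change of 0.36 (0.14 without mouse 2), and Tnfsf13b, which encodes the survival factor BAFF, one of -0.46.

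Cxcl13 had a wider range in lung than any member. Its lung levels were 2.36, 1.09, 2.97 and 1.25 in controls, 0.58, 0.54 and 0.43 at D1, 0.21, 5.59, 0.51 and 0.70 at D2, and 0.19, 0.63, 1.66 and 0.32 at D3. All 3 D1 lungs, 3 of 4 D2 lungs and 3 of 4 D3 lungs were below all controls, and the D2 lung of mouse 12 was far above them. None of these changes was called (adjusted p of 1, 1 and 0.80).

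In liver at D3, 8 of the niche genes were tested and 0 were called (1 at unadjusted p under 0.05 by limma, beside 2376 of all 30449 probes). Of the 8, 6 were above 0 (median 0.17), or 4 of 8 without mouse 17 (median 0.02). The chemokine genes Ccl19 and Ccl21a were highest at 0.97 (SE 0.36, adjusted p = 0.53, limma) and 0.71 (SE 0.81, adjusted p = 0.87), and Cxcl12 (-0.20) and Pigr (-0.19) lowest. Ccl19 levels were 1.44, 1.2, 1.70 and 2.10 in control livers and 2.27, 2.80, 1.98 and 3.28 at D3. Ccl21a went both ways, with 2 of 4 D3 livers above and 2 below all controls, and its change was 0.00 without mouse 17. In forestomach 7 were tested, 0 were called (0 unadjusted by limma), and 4 were above 0 (median 0.18), from Cxcl12 at -0.30 and Ccl21a at -0.23 to Madcam1 at 0.28 and Pigr at 0.66. Without mouse 16 the median was 0.07, with Cxcl12 at -0.11 and Ccl21a at -0.40.

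Markers of other leukocytes gave these values in lung at D3. None was called by limma. All 5 NK cell genes were below 0 (median -0.57), with mean levels of 1.33 to 2.30 in control lungs and 0.58 to 1.36 at D3. Of 11 T cell genes tested, 8 were above 0 (median 0.04), of 7 macrophage genes 3 (median -0.35), and of 4 neutrophil genes 4 (median 0.62). In liver at D3, with mouse 17 included, 6 of 6 general leukocyte genes were above 0 (median 0.37). So were 5 of 7 macrophage genes (0.32), 2 of 2 neutrophil genes (1.09), 7 of 11 T cell genes (0.01) and 2 of 4 NK cell genes (0). None of these liver genes was called, and their part in the B cell values was not tested.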

How the data were processed

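RNA from lung, liver and forestomach (Cy5) was hybridised with a universal mouse reference RNA (Cy3) on 2-colour Agilent arrays, without dye swap. The authors deposited scanner files with the median intensity per channel on a linear scale, background flags and a log10 ratio, and a table of LOWESS-normalised log2 ratios. Per the file headers, liver arrays were read with Feature Extraction 11.0.1.1 and the others with 10.7.3.1.

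Median intensities without background subtraction were turned to log2 ratios and normalised by loess within array in limma 3.58.1 (R 4.3.3). Control and outlier spots were left out. Probes well above background on at least 3 (lung, forestomach) or 2 arrays (liver, all 42 arrays) were kept. Genes were named through RefSeq accessions, and the probe with the highest mean sample intensity stood for a gene. All dose groups of a tissue, or all 42 arrays, were fitted together, with Benjamini-Hochberg adjustment over all kept probes. The study used MAANOVA, which was not used here. At the same cutoffs it listed many more genes for the high dose of BkF in each tissue than were called here. It also named B cell receptor signalling among the liver responses to BkF. A bound ("at least") set the brighter group's mean against the dimmer group's, floored at the lowest signal well above background. On simulated data for lung at D3 (32695 probes), 83% of probes changed by 1 and 96% of those changed by 2 (log2) were called, in liver 94% and 99% (30449 probes) and in forestomach 53% and 92% (25305 probes). The changed probes were drawn at random and given independent noise, so these rates need not hold for the members. In lung at D3 the SE was 0.51 for Cr2 and 0.38 for Cd79b. The number of arrays limits the precision.

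The members and gene lists were chosen with earlier results of these data known. All members are named, and of each of the 3 B cell lists any gene called and the 2 highest and 2 lowest changes at D3. Each array is labelled with 1 mouse.

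Mouse numbers mark the same animal in the 3 tissues. Over 39 pairs of arrays of a mouse, deviations from group means correlated by -0.17 to 0.34 (median 0.05). The lung and forestomach arrays of most mice share a slide, among them the pair with 0.34 (mouse 20). In such pairs mouse and slide cannot be told apart.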

Additional observations from a re-analysis of the deposited data

Results flagged for a closer look

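The members' levels were checked in 46 groups of 4 arrays for a highest or lowest array that lay far from the rest by Dixon's ratio, and 2 such arrays were found, which is about what chance gives at 1 in 20. In D2 lungs, Cd79b was -0.62 in mouse 12 and 1.15 to 1.30 in the others, and that array was also the one with high skeletal muscle markers. In control livers, Cr2 was 1.03 in mouse 1 and 0.73 to 0.75 in the others. No member's D3 change differed between tissues by limma's test of the difference.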

How the results depend on the processing

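The alternatives were the scanner's own ratio, normexp correction, the authors' table, no filter on dim probes, fits of the compared groups alone, slide or mouse as a block and each array left out, plus some chosen after seeing the data (without mice 12, 17, 2, 7, 15 or 16). No member was called for dose in any of them. For vehicle liver against forestomach, 1 member was called, but 3 with the scanner's ratio (Cd22 and Cr2 joining), 2 with both groups alone, 3 without the muscle-high arrays, and 1 to 2 when each array was left out. Mouse as a replicate block gave 6, 5 and 1 called members for the vehicle comparisons, which changed no call. The cause of these shifts was not tested.

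Some members' values changed sign. With the scanner's ratio, liver against forestomach turned to 0.91 for Cd79b, 0.86 for Ms4a1, 0.19 for Blk, 0.12 for Pou2af1 and 0.01 for Cd79a, and forestomach Cd79b at D3 to 0.18. Cd79b in liver at D3 was -0.13 in the authors' table, and Pou2af1 in forestomach -0.13 with slide as a block. With each array left out, lung at D3 ran from -0.13 to 0.14 for Blk, -0.08 to 0.38 for Ms4a1 and -0.08 to 0.34 for Cd79a. Liver Pou2af1 ran from -0.13 to 0.13. Forestomach at D3 ran from -0.47 to 0.09 for Cd79b, -0.01 to 0.14 for Cr2 and -0.17 to 0.38 for Pou2af1. Lung against forestomach ran from -0.03 to 0.16 for Mzb1 and -0.08 to 0.20 for Cd22, and liver against forestomach from -0.42 to 0.03 for Cd79b, -0.06 to 0.03 for Blk and -0.10 to 0.05 for Cd79a.

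Counts over all probes moved by more than 1.5 times in lung at D2 (5, range 0 to 11) and D3 (11, 3 to 34), in the lung trend (11, 1 to 24), in liver at D2 (13, 0 to 159) and D3 (16, 2 to 46), in forestomach at D1 (0, up to 333 with both groups alone), and in the D3 change between lung and liver (10, 5 to 20), lung and forestomach (4, 0 to 8) and liver and forestomach (2, up to 5). Lung D1 (0, up to 1), liver D1 (0, up to 5) and the liver trend (0, up to 9) also moved. Signal near background limits Blk and Tnfrsf17 in every tissue, Cd79a outside lung, and Ms4a1 in forestomach and vehicle liver. In forestomach it also limits Cr2 (4 of 14 arrays well above background), Cd79b (8 of 14) and Pou2af1 (11 of 14).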
